A study of Mus musculus with 10 samples.

Results

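The chromatin around Zfp42, Triml1, Triml2 and Fat1, 4 protein-coding genes on mouse chromosome 8, was followed from fibroblasts through reprogramming to embryonic stem cells. Accessibility was measured by ATAC-seq, in which the Tn5 transposase inserts sequencing adapters into open DNA and a peak is a stretch with more insertions than its surroundings. Every peak within 50 kb of 1 of the 4 genes was taken from each of the 10 deposited peak lists (mm10). Peaks that overlapped or touched between lists were merged into regions, and 74 of the 208827 regions of the whole series lay in these windows. The windows of Zfp42, Triml1 and Triml2 were treated as 1 neighbourhood of 37 regions, since the windows of Triml2 and Zfp42 lie 1.18 kb apart with 0 regions in the gap. The window of Fat1, 1.63 Mb away, held the other 37 regions.

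The study had 5 stages with 2 libraries each. MEF are embryonic fibroblasts from mice of mixed C57BL/6 x 129 background that carry a polycistronic cassette of Oct4, Klf4, Sox2 and Myc in Col1a1 and the M2rtTA activator in Rosa26, grown without doxycycline. DAY3, DAY6 and DAY9 are the same kind of cells after 3, 6 and 9 days with 1 ug/ml doxycycline and 50 ug/ml ascorbic acid in ESC medium. ESC is the single line V6.5, which has no cassette and was grown on irradiated feeder cells, themselves fibroblasts. Only the DAY6 and DAY9 cells were sorted for the surface marker SSEA1, so the sort cannot be told apart from those days, nor the lack of a cassette from ESC.

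Zfp42, also called Rex1, encodes a zinc finger protein related to Yy1. It is expressed in the inner cell mass and in naive pluripotent stem cells, is silent in fibroblasts, and is widely used as a reporter of the late steps of reprogramming. Oct4, Sox2, Nanog and Klf factors are known to act on it, and the octamer in its promoter is a known Oct4 motif. Triml1 and Triml2 encode tripartite-motif-like proteins of the early embryo. Fat1 encodes a very large atypical cadherin at the surface of many epithelial and mesenchymal cells, fibroblasts among them, so the neighbours differ in where they are used.

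Zfp42 is transcribed towards Triml2, from base 43307009 down to 43295067 of chromosome 8. Upstream of its start therefore means larger coordinates, towards Fat1, and downstream means towards Triml1 and Triml2. Triml2 (43180463 to 43193884) runs on the other strand, and its start at 43180536 lies beside the outermost 5′ end of Triml1 (43129806 to 43180494). The promoter table places the Triml1 start further inside, at 43141486. Fat1 spans 44933100 to 45052257 and is transcribed away from Zfp42. The table gives its start as 44950208, inside the gene. Distances were taken from both that site and the outermost 5′ end. Promoter sequences and start-site peaks used the table's start alone. Whether a region is exonic or intronic was not analysed here.

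The promoters are shown first because the 4 starts differed in when a peak appeared on them. Each line gives the 250 bases before a start in the gene's own direction, from RefSeq on GRCm38.p6, the assembly of mm10, and all 4 genes were matched by symbol. Capitals mark every match, on either strand, to 7 motifs: the octamer ATTTGCAT, a SOX motif AACAATG, the KLF motifs CACACCC and GGGCGGG, an ESRRB motif TCAAGGTCA, a YY1 motif AAGATGGC and the AP-1 motif TGANTCA.
Zfp42, chr8:43307010-43307259, minus strand: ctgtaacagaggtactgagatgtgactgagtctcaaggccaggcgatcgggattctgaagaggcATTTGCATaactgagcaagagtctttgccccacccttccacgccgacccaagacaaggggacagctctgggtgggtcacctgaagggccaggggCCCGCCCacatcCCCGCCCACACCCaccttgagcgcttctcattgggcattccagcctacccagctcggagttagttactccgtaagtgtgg
Triml2, chr8:43180286-43180535, plus strand: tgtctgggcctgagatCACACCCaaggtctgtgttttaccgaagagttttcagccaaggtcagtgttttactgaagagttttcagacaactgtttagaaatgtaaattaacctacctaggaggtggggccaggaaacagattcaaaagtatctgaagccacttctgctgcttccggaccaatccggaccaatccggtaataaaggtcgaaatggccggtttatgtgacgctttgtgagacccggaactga
Triml1, chr8:43141487-43141736, minus strand: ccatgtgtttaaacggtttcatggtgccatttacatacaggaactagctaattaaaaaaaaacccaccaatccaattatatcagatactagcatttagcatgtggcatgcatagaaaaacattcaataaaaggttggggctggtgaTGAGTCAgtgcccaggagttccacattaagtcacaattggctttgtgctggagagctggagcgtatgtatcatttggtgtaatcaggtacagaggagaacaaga
Fat1, chr8:44949958-44950207, plus strand: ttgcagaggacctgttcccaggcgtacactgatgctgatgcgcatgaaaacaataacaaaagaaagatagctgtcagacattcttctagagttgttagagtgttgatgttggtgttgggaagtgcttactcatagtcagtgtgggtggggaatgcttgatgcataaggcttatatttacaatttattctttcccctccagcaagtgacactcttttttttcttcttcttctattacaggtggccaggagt
The Zfp42 promoter held the octamer 186 to 179 bases before the start, and GGGCGGG on the opposite strand at 92 to 86 and 80 to 74 bases. A CACACCC match at 74 to 68 bases shares 1 base with the second of these. The Triml2 promoter held 1 CACACCC match, 234 to 228 bases before its start, and the Triml1 promoter 1 AP-1 match, 104 to 98 bases before its start. The 250 bases before the table's Fat1 start, which lies inside the gene, held none of the 7. The bases before the outermost 5′ end of Fat1 were not searched. Among all 32851 promoters of the same length, the octamer was found in 1.6%, AACAATG in 3.29%, CACACCC in 6.93%, GGGCGGG in 23.4%, TCAAGGTCA in 0.387%, AAGATGGC in 1.56% and TGANTCA in 6.75%. These matches describe the letters only. The Zfp42 and Triml2 promoters had 9 and 8 CpG sites, above the median of 6 over all promoters. The sequences printed for Triml1 and Fat1, before starts inside the genes, had 2 each.

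The lists held 45497 to 88980 peaks, and their background pileup, the read coverage that the peak caller expected away from peaks and a measure of relative depth, was 2.33 to 8.32. Summit pileups of the DAY3 pair and of the DAY9 pair were nearly as close as repeated counting would make them (noise ratios 1.33 and 1.42, where counting alone gives 1), and each pair was counted as 1 sample. The ratio was 3.61 for DAY6, 9.47 for ESC and 11.4 for MEF, so 8 samples were counted in all. Nothing in the labels says that libraries of a stage came from separate cultures, so each p measures only the spread between these libraries. Of the 8 pluripotent-cell markers, 1 had a gene-end peak in both MEF libraries, 1 in DAY3, then 4, 6 and finally 7 in ESC. In the same order of stages the counts were 6, 3, 2, 3 and 3 for the 8 fibroblast markers and 0, 2, 4, 5 and 4 for the 5 epithelial markers. The fibroblast marker ends still listed in ESC stand beside the feeder cells named in the labels, and the part of the feeders in the results was not tested. In bulk cells, fewer open cells and less opening in each cell cannot be told apart.

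A peak on the start of Zfp42 was found in 8 of the 10 libraries and became strong in stages. The region, chr8:43306771-43307589 (819 bp), covers the start and all of the promoter printed above. The authors' fold, the summit over its local background, was 3.22 in MEF replicate 2, and MEF replicate 1 had no peak there. It was 5.39 in DAY3 replicate 1, and DAY3 replicate 2 had no peak. The DAY6 folds were 10.2 and 7.99, the DAY9 folds 10.9 and 13.0, and the ESC folds 14.6 and 12.7. All 6 libraries from DAY6 on thus had a fold above those of the MEF and DAY3 libraries. Of 17492 protein-coding genes, 2.42% had this start-site pattern, a peak in both libraries of DAY6, DAY9 and ESC and in both libraries of no earlier stage.

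The fold alone hid how much the start of Zfp42 differed between DAY9 and ESC. The summit pileup, the number of fragments stacked at the highest point, was recovered from the deposited values and divided by the background pileup of its list. This scaled pileup was 3.49 in MEF replicate 2, 6.23 in DAY3 replicate 1, 13.3 and 12.9 at DAY6, 12.3 and 15.3 at DAY9, and 88.2 and 63.2 for ESC. In the lists without a peak there, MEF replicate 1 and DAY3 replicate 2, the lowest value that could be called at the list's background was 4.09 and 3.42. DAY6 and DAY9 overlapped, and both ESC libraries lay far above them. The mean was 75.7 in ESC and 13.8 in DAY9, 5.49-fold higher, while the mean fold was 13.6 and 11.9, only 1.14-fold higher. The local background beneath the peak moved as well: relative to the list it was 5.79 and 4.8 in ESC against 1.0 and 1.06 in DAY9, which lowers the fold of a peak of given height. Within its own list the start peak of Zfp42 was outscored by 0.572% and 0.5% of the peaks in the ESC lists, by 21.2% and 16.5% for DAY9, by 23.8% and 33.1% for DAY6, by 43.5% in DAY3 replicate 1 and by 62.7% in MEF replicate 2. With 2 libraries against 2 the smallest exact two-sided p is 0.333, so these heights are given without a test.

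**Figure D1:**
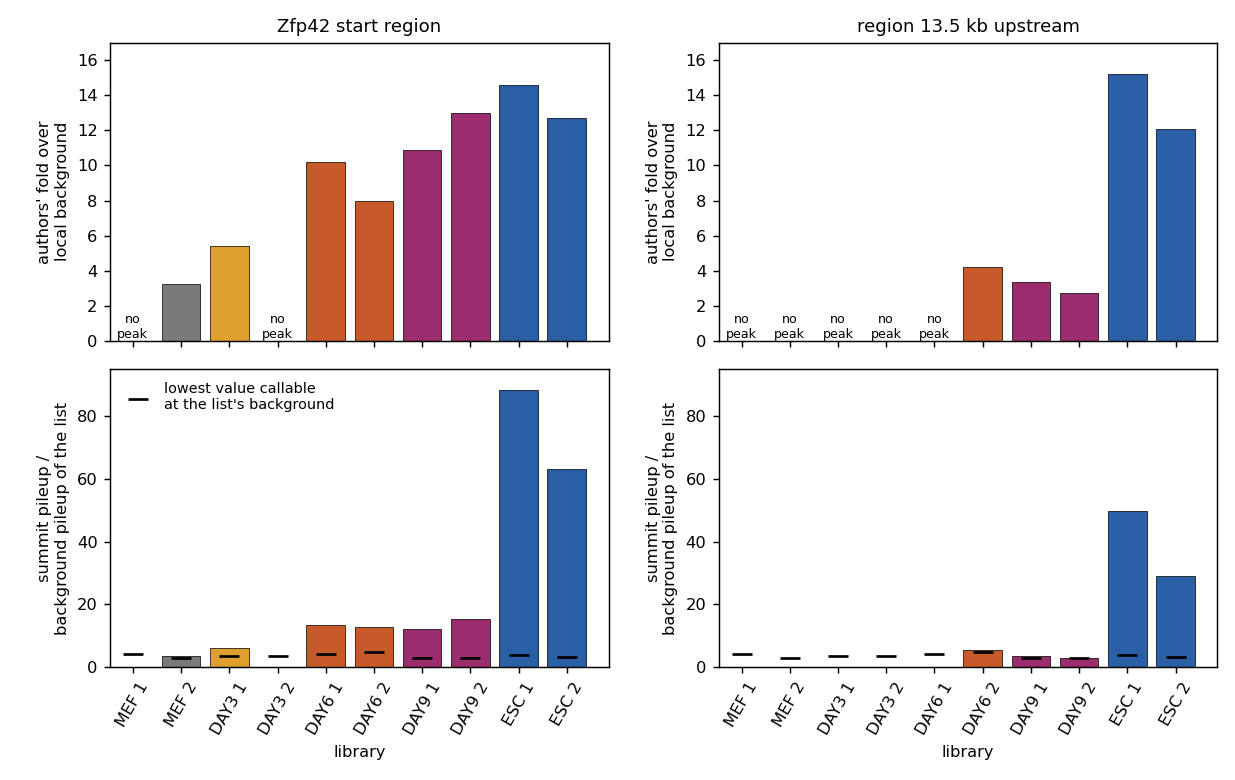
Height of the peak on the Zfp42 start (left) and of the region 13.5 kb upstream (right) in each library (x axis). The top bars are the authors' fold over local background, the bottom bars the summit pileup divided by the background pileup of the list; "no peak" marks libraries without a peak, and the black dashes mark the lowest value that could be called at the list's background (2.76 to 4.72). At the start the folds of DAY9 (10.9 and 13.0) and ESC (14.6 and 12.7) are close while the scaled pileups (12.3 and 15.3 against 88.2 and 63.2) are not.

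A second strong element of the Zfp42 neighbourhood lay 13.5 kb upstream of the start, at chr8:43320554-43321382 (829 bp), outside any annotated gene. It was present in DAY6 replicate 2 and in all DAY9 and ESC libraries. Its fold was 4.21 in DAY6 replicate 2, 3.36 and 2.75 at DAY9, and 15.2 and 12.1 for ESC. The scaled pileup was 5.58 in that DAY6 library, 3.68 and 2.99 at DAY9, and 49.7 and 28.9 for ESC. The DAY9 values lie just above the lowest callable values of those lists, 2.86 and 2.85. The ESC mean was 11.8-fold the DAY9 mean in scaled pileup (39.3 against 3.33) and 4.47-fold in fold (13.6 against 3.05). While the start already had a strong peak at DAY6 and DAY9, this element was weak or unlisted in every stage other than ESC.

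The start and the 13.5-kb element were followed by weaker peaks in ESC on both sides. Inside the gene, 0.82 kb, 6.7 kb and 10.7 kb downstream of the start, peaks appeared in both ESC libraries and no other. The nearest of them, chr8:43305598-43306188, had folds of 5.78 and 3.42, and the one near the 3′ end, chr8:43295710-43296295, had 4.62 and 3.47. Upstream, the region at 21.6 kb, chr8:43328627-43329029, had folds of 5.2 and 4.56 and the region at 46.3 kb, chr8:43353314-43354100, 5.7 and 6.76, both in ESC alone. The region at 26.5 kb, chr8:43333487-43333904, had ESC folds of 9.96 and 4.73 and a fold of 2.64 in DAY9 replicate 1. In ESC replicate 1 the scaled pileup was 35.6 at 0.82 kb downstream, 13.5 at 10.7 kb downstream, and upstream 7.76 at 21.6 kb, 14.9 at 26.5 kb and 14.4 at 46.3 kb. Apart from the element 0.82 kb downstream, all of these were well below the 49.7 of the 13.5-kb element in the same library.

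Around Zfp42, 2 regions with other time courses were picked out after their values were seen. The region 1.22 kb upstream, chr8:43308227-43308585, had a peak in each DAY6 library (folds 4.01 and 3.5), in each DAY9 library (3.12 and 3.42) and in ESC replicate 1 (2.69). Its scaled pileup was nevertheless highest in ESC replicate 1, at 15.8 against 3.41 and 3.93 in DAY9, over a local background of 5.7 relative to the list. The region 41.7 kb downstream, chr8:43264534-43265310 (777 bp), between Triml2 and Zfp42, peaked early. The DAY3 folds were 8.56 and 10.1, after 2.9 in MEF replicate 2 and before 3.59 and 3.61 at DAY6 and 4.68 in ESC replicate 1, and neither DAY9 library listed it. The scaled pileup was 10.6 and 12.0 at DAY3 against 3.12 in MEF replicate 2, 4.35 and 4.72 at DAY6 and 5.75 in ESC replicate 1, so both DAY3 values lay above all others. It was the only region of the neighbourhood with a peak in both DAY3 libraries.

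**Figure D2:**
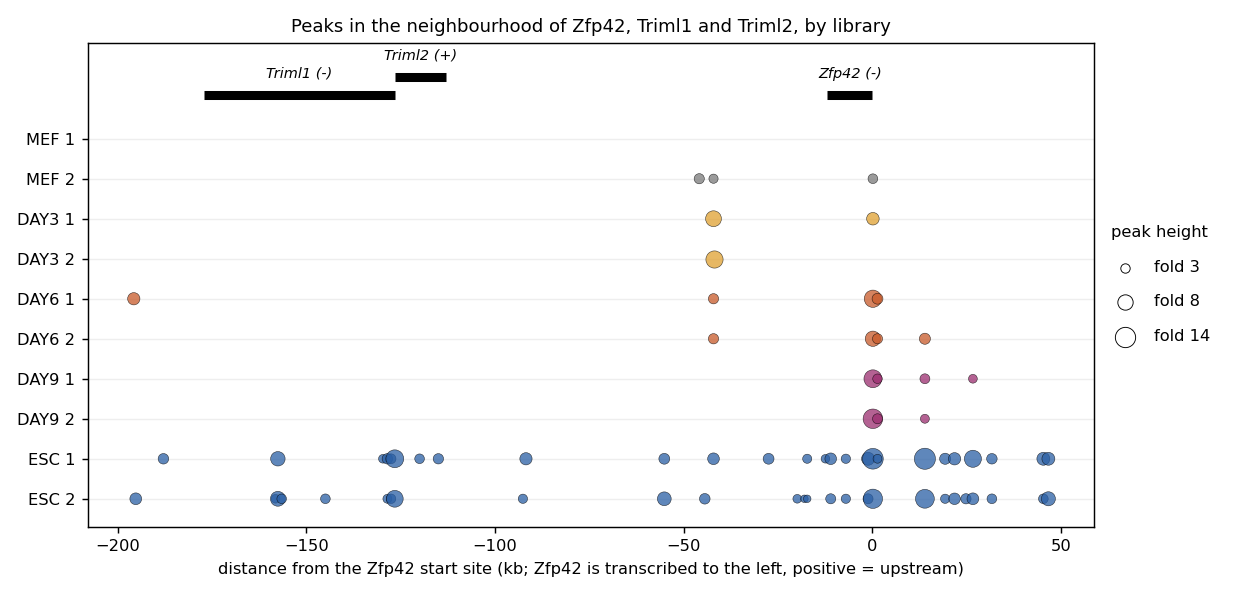
Peaks of the Zfp42, Triml1 and Triml2 neighbourhood. Each dot is a peak, placed by its distance from the Zfp42 start in kb (x axis; positive is upstream) and by library (y axis), with an area that grows with the authors' fold; bars at the top are the genes. MEF replicate 1 has no peak, the libraries of DAY3 to DAY9 have 1 to 4 of the 37 regions each, and both ESC libraries have 26.

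Triml2 and Triml1 showed peaks almost only in ESC. The strongest, chr8:43180072-43180763 (692 bp), covers the Triml2 promoter printed above and the outermost 5′ end of Triml1, 126 kb downstream of Zfp42. It was found in both ESC libraries and no other, with folds of 10.9 and 9.65, scaled pileups of 67.2 and 43.4, and 1.74% and 1.76% of the peaks in those lists scoring higher. The Zfp42 start, at 88.2 and 63.2, was the only region of the neighbourhood with higher scaled pileups in these libraries. The pattern of the Triml2 start, ESC alone, was shared by 2.15% of protein-coding genes. Inside Triml1, 3 more regions were found in both ESC libraries and no other. The one at chr8:43149044-43149797, 157 kb from Zfp42, had folds of 7.14 and 7.57, the one at chr8:43178210-43178696 had 3.73 and 2.72, and the one at chr8:43179198-43179654 had 3.3 and 3.08. Within 1 kb of the Triml1 start in the promoter table no library had a peak. The only peak of either Triml window outside ESC, with a fold of 5.16, was in DAY6 replicate 1 beyond the 3′ end of Triml1, at chr8:43110998-43111430.

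Counted over the whole neighbourhood of Zfp42 and the Triml genes, most of the difference lay between DAY9 and ESC. ESC is a separate line and not a later day of the same cells. Of the 37 regions, 0 had a peak in both libraries of MEF, whereas 17 had one in both libraries of ESC, with 1, 3 and 3 for DAY3, DAY6 and DAY9. Of all 208827 regions, 46089 had one in both libraries of MEF and 58799 in both of ESC. For DAY3, DAY6 and DAY9 these genome counts were 35392, 45279 and 64382. Against MEF, ESC gained 16 regions (43.2% of the 37) and lost 0, where gained means a peak in both later and neither earlier libraries. Over all regions 15.9% were gained and 11.1% lost. The gained count was 10 with 45497 peaks kept from every list, and 25 without ESC replicate 1, when a peak in 1 ESC library was enough. The shares over all regions under these settings are not given here, so neither count can be set against 15.9%. ESC against DAY9 gained 14 of 37, against 9.1% of all regions. Earlier steps moved little: DAY3 against MEF gained 0 and lost 0 (5.43% and 10.4% of all regions), DAY6 against DAY3 gained 1 (5.29%), the region 1.22 kb upstream, and DAY9 against DAY6 lost 1 (0.956%), the region 41.7 kb downstream. Of the 16 gained regions 15 first had a peak in both libraries in ESC (93.8%) and 1 in DAY9, while of the gained regions of the genome 60.9% first had one in ESC and 8.69% already in DAY3. Between the Zfp42 and Fat1 windows all 15 gained regions (100%) first had one in ESC.

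Many of the regions were found in ESC alone. Of the 17 in both ESC libraries, 14 (82.4%) had no peak in any other library, against 28.1% over all regions. Between the Zfp42 and Fat1 windows it was 13 of 15 (86.7%), so the share was not particular to the Zfp42 neighbourhood. The Zfp42 window by itself held 10 such regions, and 0.146% of 21887 protein-coding genes had as many or more within 50 kb, the median being 1. With 45497 peaks kept from every list it held 6. The share of genes with as many under that setting is not given here, so 0.146% holds for the full lists only. Its gained regions numbered 12, and 0.781% of genes had as many. The Triml1 and Triml2 windows overlap and shared the same 4 regions, gained and in ESC alone. As many gained regions were found for 21.6% of genes and as many in ESC alone for 4.95%, so such Triml counts were more common. In the whole neighbourhood, 10 of 11 ESC regions (90.9%) were in ESC alone in the lists of equal length, against 26.6% over all regions. No region of the neighbourhood was open in all 10 libraries, against 7.35% of all regions. The counts were given as a description, and no test was run on them.

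Fat1 had regions open from MEF on. Its window held 170 peaks over the 10 lists against 73 in the Zfp42 neighbourhood. Of its 37 regions 5 were open in all 10 libraries, against 15359 of all 208827 regions (7.35%). The 2 nearest its outermost 5′ end lie inside the gene. The region at 1.60 kb, chr8:44934695-44936199, had folds from 3.62 to 6.22 with no order by stage, and the region at 4.12 kb, chr8:44937221-44938639, from 4.62 to 6.81. A region 45.25 kb into the gene, chr8:44978353-44980523 (2171 bp), had the highest folds of the 5, from 5.65 in DAY6 replicate 1 to 13.9 in ESC replicate 1, and scaled pileups from 11.9 in DAY9 replicate 1 to 42.0 in ESC replicate 1. The region at 52.07 kb, chr8:44985166-44986271, had DAY9 folds of 9.56 and 9.98 and folds between 3.01 and 7.25 elsewhere. Its scaled pileup was highest in DAY6 replicate 1, at 17.1, with 16.6 in both DAY9 libraries and 9.44 in DAY6 replicate 2. The fifth, chr8:45068695-45069377, lies in Mtnr1a, the melatonin receptor gene next to Fat1, with folds from 3.39 to 8.78. At the Fat1 start of the promoter table, only DAY3 replicate 1 (3.01) and DAY6 replicate 2 (4.49) had a peak.

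Around Fat1, regions were gained and lost at several steps. ESC gained 11 of the 37 regions against MEF (29.7%) and lost 3 (8.11%), where all regions gave 15.9% and 11.1%. Without ESC replicate 1, when a peak in 1 ESC library was enough, the gained count was 17. The share over all regions under that setting is not given here. The first stage with a peak in both libraries was DAY3 for 1 of the 11 (9.09%), DAY6 for 3 (27.3%), DAY9 for 1 (9.09%) and ESC for 6 (54.5%). Over all gained regions these shares were 8.69%, 14.7%, 15.7% and 60.9%, so the split around Fat1, on few regions, was near that of the genome. DAY3 against MEF gained 2 (5.41%, all regions 5.43%) and lost 3 (8.11%, all regions 10.4%). DAY6 against DAY3 gained 4 (10.8%, all regions 5.29%), DAY9 against DAY6 lost 2 (5.41%, all regions 0.956%) and ESC against DAY9 gained 5 (13.5%, all regions 9.1%). As many gained regions within 50 kb were found for 1.09% of protein-coding genes. That share takes no account of gene length, and the Fat1 window spans 219 kb against 112 kb for Zfp42. Of its 20 ESC regions 3 (15.0%) were in ESC alone, against 28.1% over all regions, but with 45497 peaks kept from every list the count was 4 of 13 (30.8%), against 26.6%.

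The gained elements of Fat1 lay before the gene, in it and past it. Before the 5′ end, chr8:44920179-44921041 (12.06 kb away) had ESC folds of 8.0 and 9.47 and chr8:44891385-44891971 (41.13 kb away) 4.91 and 6.97, and no other library listed either. Inside the gene, chr8:44993315-44993871 opened at DAY3 (folds 7.36 and 6.07) and was listed in every later library, with 4.84 and 3.6 in ESC. The region chr8:44971164-44972318 was found in both libraries from DAY6 on, with 9.09 and 8.55 in DAY9, after 3.65 in DAY3 replicate 2. So was chr8:45038092-45038795 from DAY6 on, with 9.85 and 7.2 in ESC. The region chr8:44959398-44960097 was in both libraries of DAY6 and ESC, with 7.95 and 4.39 in ESC, and in DAY9 replicate 2 (3.18). Near the 3′ end and past it, chr8:45050894-45051639 had 6.38 and 5.86 in ESC, chr8:45056759-45057207 5.58 and 5.78, chr8:45062995-45063932 6.65 and 5.5, and chr8:45064205-45064666 4.03 and 4.66.

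The 3 elements lost around Fat1 were all inside the gene. The strongest, chr8:45018602-45019708, 85.5 kb from the 5′ end, was lower at each listed stage by fold. The MEF folds were 11.5 and 9.55, the DAY3 folds 6.06 and 4.83, the DAY6 folds 4.45 and 4.47, and no DAY9 or ESC library listed it. The scaled pileups were 19.6 and 10.6 for MEF, 8.68 and 5.69 for DAY3 and 6.96 and 6.87 for DAY6, so both MEF values lay above the rest. The region chr8:44996370-44997023 had folds of 8.26 and 7.5 in MEF, 3.1 in DAY3 replicate 2 and no later peak. The region chr8:44986560-44987076 had 4.55 and 5.02 and was listed in MEF alone. No region with a peak in both MEF libraries was found around Zfp42 or the Triml genes, where the 3 MEF peaks were all in replicate 2.

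**Figure D3:**
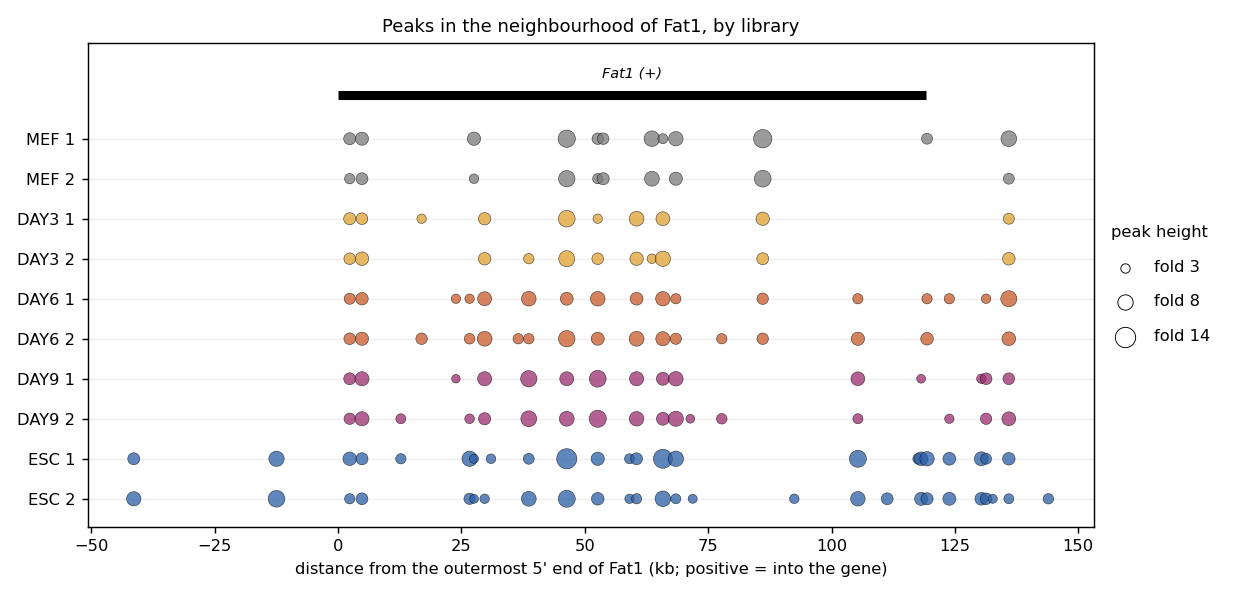
Peaks of the Fat1 neighbourhood. Dots are peaks, placed by distance from the outermost 5′ end of Fat1 in kb (x axis; positive runs into the gene) and by library (y axis), with an area that grows with the authors' fold; the bar is the gene. Columns of dots across all rows are the 5 regions found in all 10 libraries, and MEF already shows 12 and 10 of the 37 regions.

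The share of regions with a peak was then tested across the stages. In the Zfp42 neighbourhood it was 0% and 8.11% in the MEF libraries, 5.41% and 2.7% at DAY3, 10.8% in both libraries at DAY6, 10.8% and 8.11% at DAY9 and 70.3% in both ESC libraries. As mean ± SD this was 4.05% ± 5.73 (n = 2) for MEF, 10.8% ± 0 (n = 2) for DAY6 and 70.3% ± 0 (n = 2) for ESC, and the single averaged samples of DAY3 and DAY9 were at 4.05% and 9.46%. The rise from MEF to ESC was 66.2 points (Jonckheere-Terpstra trend test, exact and two-sided by permutation of 8 samples in 5040 arrangements, p = 0.0131, adjusted p = 0.0196 over 3 tests). The set of regions was not chosen independently of ESC, since it is the union of the peaks of all lists. Of the 37 regions, 35 had a peak in at least 1 ESC library and 3 in at least 1 MEF library. Around Fat1 these counts were 29 and 12. A high ESC share was thus partly built into both sets, and the p-values are no independent support for a rise. The Fat1 neighbourhood went from 29.7% ± 3.82 (n = 2) for MEF through 28.4% at DAY3, 45.9% ± 0 (n = 2) at DAY6 and 43.2% at DAY9 to 66.2% ± 5.73 (n = 2) for ESC. Its rise of 36.5 points also passed (exact permutation p = 0.0111, adjusted p = 0.0196). Both calls were lost when certain single libraries were left out. In the same exact permutation test, the adjusted p for Zfp42 was 0.0774 without MEF replicate 1, 0.0548 without MEF replicate 2 and 0.0619 without either ESC library. For Fat1 it was 0.0595 without MEF replicate 2 and 0.0619 without either ESC library. With only peaks of −log10 q of at least 10, the rises were 35.1 and 21.6 points and still passed (exact permutation test, adjusted p = 0.0393 and 0.0357).

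The difference between the neighbourhoods was tested as its own quantity. The Zfp42 share minus the Fat1 share was −25.7 ± 9.56 points (n = 2) for MEF, −24.3 for DAY3, −35.1 ± 0 (n = 2) for DAY6, −33.8 for DAY9 and 4.05 ± 5.73 (n = 2) for ESC. No trend over the stages passed the test (exact permutation p = 0.543, adjusted p = 0.543). The Fat1 share was the larger one in every library up to DAY9, and the shares overlapped in ESC. The test asks for a trend in 1 direction, so a p that misses the threshold does not show that the neighbourhoods opened alike. Longer lists show more regions, and with 45497 peaks kept from every list the Zfp42 rise was 33.8 points and no longer passed (exact permutation test, adjusted p = 0.295), while the Fat1 rise was 16.2 points (adjusted p = 0.00357). In these equal lists the Zfp42 neighbourhood still had 12 and 15 regions in ESC against 0 to 2 in every other library.

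**Figure D4:**
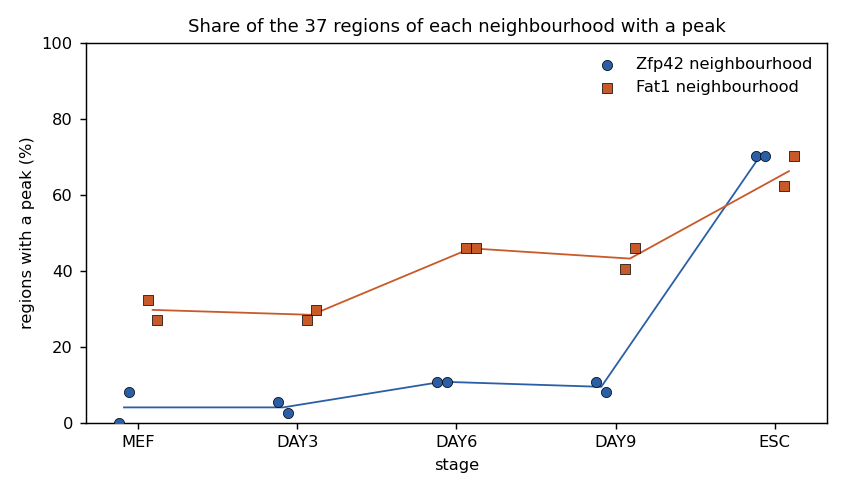
Share of the 37 regions of each neighbourhood with a peak, in percent (y axis), by stage (x axis). Points are libraries and lines join the stage means. The Zfp42 points lie between 0% and 10.8% up to DAY9 and at 70.3% in ESC, and the Fat1 points between 27.0% and 45.9% up to DAY9 and at 62.2% and 70.3% in ESC.

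Related genes gave a measure of what the Zfp42 start shared with its class. Of 21 pluripotency factors, 8 had a peak within 1 kb of a gene end in both MEF libraries, and the counts of the following stages were 9, 13, 15 and 18. Over all 21887 protein-coding genes the shares were 55.6%, 54.9%, 59.5%, 63.2% and 62.3% in the same order. Sall4, Tdgf1, Nr0b1 and Dppa5a had the pattern of Zfp42, DAY6, DAY9 and ESC, as did 2.76% of all genes. By start site alone, 12 of the 21 could be matched, and 4 of them had that pattern, here Esrrb, Nr5a2, Nr0b1 and Tdgf1. Nanog and Lin28a had peaks in both libraries only from DAY9 on. Prdm14, Dppa2 and Dppa4 had them in ESC alone, as did the start of Triml2. Peaks in all 10 libraries were found for 8 of the 21: Klf2, Klf5, Tbx3, Tfcp2l1, Utf1, Pou5f1, Sox2 and Klf4. The coding sequences of the last 3 are also in the cassette of the MEF and DAY libraries, where reads from it cannot be told apart from reads of those genes.

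Among the zinc finger relatives of Zfp42, Yy1 had a peak at its start in all 10 libraries and Yy2 in the 2 ESC libraries alone. Of the 5 Fat and Dachsous cadherins other than Fat1, Fat3, Fat4 and Dchs1 had a peak at a gene end in all 10 libraries. Dchs2 had one in every DAY9 and ESC library and also in MEF replicate 1 and DAY6 replicate 1, and Fat2 had none.

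In the 1.53 Mb between the neighbourhoods, no region found in both MEF libraries lay within 786 kb of the Zfp42 start. No region had a peak in both MEF libraries from 360 kb downstream of the Zfp42 start to 786 kb upstream of it. This stretch of 1.15 Mb held 26 regions found in both ESC libraries and 6 with a peak in a single MEF library. Its ends were set by the nearest regions found in both MEF libraries, and how common such stretches are elsewhere was not examined. Of the 84 regions between the windows, 15 (17.9%) were gained in ESC against MEF, 86.0 to 1370 kb from Zfp42. Another 12 (14.3%) were lost, all 786 to 1560 kb away. Both shares were near those of all regions, 15.9% and 11.1%. The Zfp42 window had 11.6 ESC regions per 100 kb against 9.13 around Fat1, 3.53 around Triml2, 2.65 around Triml1 and 0.983 between the windows. For MEF the densities were 0, 4.56, 0, 0 and 0.852 in the same order. Just inside the window edge upstream of Zfp42 lay the 46.3-kb region already given, and the first region outside, 52.4 kb from the gene, was in 1 library with a fold of 3.29. On the Fat1 side the last region outside the window, 50.1 kb from the gene, was also in 1 library, with a fold of 3.62.

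**Figure D5:**
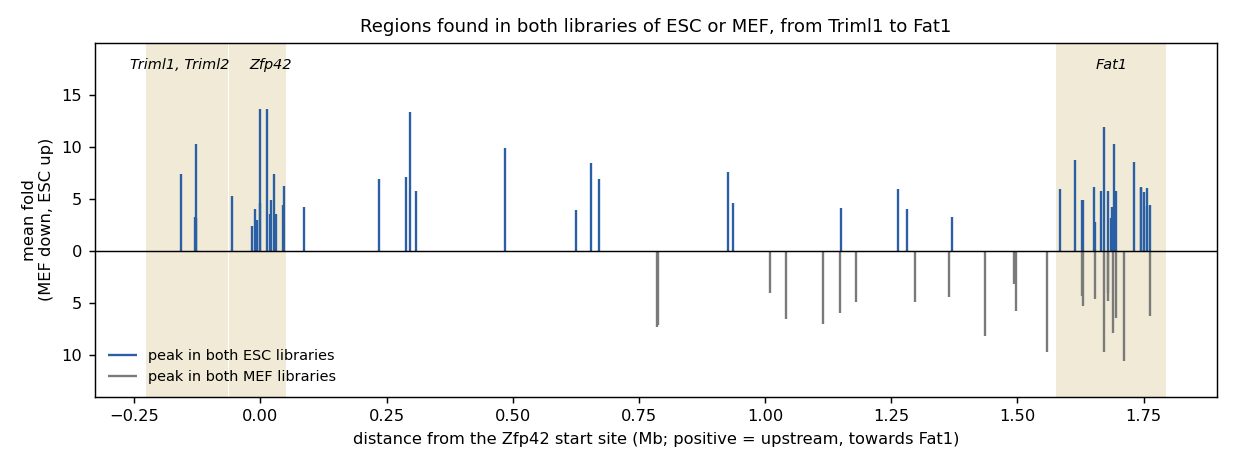
Regions found in both ESC libraries (up) or both MEF libraries (down) from Triml1 to Fat1. The x axis is the distance from the Zfp42 start in Mb (positive is upstream), the y axis the mean fold of the 2 libraries, and shading marks the windows. MEF lines begin 786 kb upstream of Zfp42, and ESC lines stand along the whole stretch.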

How the data were processed

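The members and gene lists were chosen with earlier results of these data known. Per the submitters' processing notes, the tools included Bowtie2 2.3.2, MACS2 2.1.1 and deepTools 2.3.6 and the build was mm10; their roles, duplicate handling, the transposase offset and filters are not given in the sources used here. Each of the 10 libraries has its own peak list, made by the authors per library. Its score is 10 times the −log10 p-value, rounded down, as deposited. The fold is the deposited linear ratio of the summit to its surroundings. The authors' −log10 p-values and −log10 q-values were used as deposited, and no −log10 p-value was under 5. Between 58.2% and 75.9% of the peak numbers remain in the lists, so some peaks were taken out by a rule not stated.

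From these, regions were merged over the lists (minimum overlap 1 bp) with Python 3.11.15, pandas 2.3.3, numpy 2.4.6 and scipy 1.17.1. Summit pileups were solved from fold = (n + 1) / (expected + 1) and the Poisson p, with a tolerance of 0.01 in −log10 p. Shares were tested with exact permutation tests adjusted by Benjamini-Hochberg over 3 tests, and the tests were tried on simulated data. Named regions were those at a member's start, the 10 highest-scoring gained and 5 highest-scoring lost per neighbourhood, and those in all 10 libraries; any other was named after its values were seen. Gene names and promoters are from RefSeq GRCm38.p6. Alternatives were the merging rule, window, score limit, list length, sample counting and left-out libraries. Distance to a start site alone, for the gene lists, was added after seeing the data.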

Additional observations from a re-analysis of the deposited data

How the results depend on the processing

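With 45497 peaks kept from every list, the Zfp42 rise in share was 33.8 points (exact permutation test, adjusted p = 0.295) and the regions gained around Zfp42 were 10 in place of 16. The other 48 of 50 values under alternatives that kept all libraries stayed on the same side of the threshold or within 1.5 times the count, though with −log10 q of at least 10 the rises were 35.1 points for Zfp42 and 21.6 for Fat1. Leaving out 1 library at a time gave 62.2 to 70.3 points for Zfp42 (adjusted p 0.00714 to 0.0774) and 32.4 to 40.5 for Fat1 (adjusted p 0.0107 to 0.0619). The Zfp42 rise missed the threshold without MEF replicate 1 (0.0774), MEF replicate 2 (0.0548) or either ESC library (0.0619), and the Fat1 rise without MEF replicate 2 (0.0595) or either ESC library (0.0619). The difference between the neighbourhoods ranged from 23.0 to 36.5 points and never passed. The regions tested come from the union of the lists, so none of these p-values is independent of the ESC peaks. Gained counts ranged from 16 to 25 around Zfp42 and 11 to 17 around Fat1. The highest were without ESC replicate 1, when a peak in 1 ESC library was enough. Lost counts ranged from 0 to 1 around Zfp42, the 1 without MEF replicate 1, and stayed at 3 around Fat1. With a replicate block over 10 separate libraries the adjusted p was 0.0233 for both rises and 0.866 for the difference, so no call changed. Over 10 stage pairs, the correlation between deviations of libraries with the same number lay from −0.0095 to 0.022, so no deviation shared by number was seen. Whether libraries with the same number came from 1 culture or preparation cannot be told from this. A missing peak is not a closed site: the lowest callable scaled pileup was 2.76 to 4.72, and peak numbers were missing around the Zfp42 start in the lists without a peak there, 4 over 479 kb in MEF replicate 1 and 3 over 865 kb in DAY3 replicate 2.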

Other observations

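The interval between the neighbourhoods also held strong ESC elements. The highest by fold, chr8:43603035-43604084, 296 kb upstream of the Zfp42 start and outside any annotated gene, was found in both ESC libraries and no other, with folds of 13.4 and 13.3 and scaled pileups of 31.6 and 40.3. In the same libraries the 13.5-kb element had 49.7 and 28.9, and the Zfp42 start, at 88.2 and 63.2, and the Triml2 start, at 67.2 and 43.4, were higher. The region chr8:43791470-43792558, 484 kb away, had ESC folds of 9.81 and 9.98, and chr8:43961061-43962102, 654 kb away, 9.36 and 7.59. These 3 regions were picked after their values were seen. Adam26b, Adam26a, Adam34l, Adam34 and Gm5347, the protein-coding genes of the interval, had no peak at either end in any library.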
